A study of Mus musculus with 4 samples.

Results

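The proteasome gene set was taken as the loci of the deposited expression table that carry a single symbol beginning with Psma, Psmb, Psmc, Psmd, Psme, Psmf or Psmg and a number. The rule found 45 of 47935 loci and 44 distinct symbols, because Psmd9 had 2 loci of its own. By class the loci comprised 8 of the 20S alpha type, 7 of the 20S beta type, 2 immunoproteasome beta subunits, 6 ATPases and 14 non-ATPase subunits of the 19S particle, 4 activator subunits, 1 inhibitor and 3 assembly chaperones. A further 6 loci that join a proteasome symbol to other genes were left out of all counts and are described apart.

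RNA-seq of MEL cells was measured in DMSO-induced cells (n = 2) and in uninduced cells (n = 2). MEL is a mouse erythroleukemia line, virus-transformed erythroid precursors that turn on globin genes when treated with dimethyl sulfoxide. The DMSO-induced cells received 1.5% DMSO and the uninduced cells did not, in an otherwise shared medium of DMEM with serum, antibiotics, pyruvate, glutamine and amino acids. The duration of treatment is not given in the sources used here, nor is it said whether each replicate was its own culture. The p-values therefore reflect the spread among these 4 samples, which may be technical. Levels are in FPKM, which counts sequenced fragments relative to transcript length and library size. Changes are log2 differences of FPKM + 1, DMSO-induced over uninduced, with their standard error (SE), and a locus was called at an adjusted p under 0.05 from limma with Benjamini-Hochberg adjustment over all 12890 loci that reached 1 FPKM in at least 2 samples.

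The proteasome is the protease that degrades proteins tagged with ubiquitin. Its 20S core is a barrel of alpha rings, which gate the entrance, around beta rings, which hold the active sites. The 19S particle on its end recognises, de-ubiquitinates, unfolds and threads the substrate, while other activators open the core without it, and dedicated chaperones assemble the rings. In red cell maturation the ubiquitin-proteasome system removes ribosomes and unneeded proteins as globin comes to dominate the cell.

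The samples matched their labels. Each of 9 erythroid markers was higher in both induced samples than in both uninduced samples, and 7 of the 9 were called higher. The globin loci made up 4.56% and 9.89% of the FPKM total in induced replicates 1 and 2, against 0.073% and 0.082% in uninduced replicates 1 and 2. Of 10 markers of macrophages, T cells, B cells and fibroblasts, only Cd68 reached 1 FPKM in any sample.

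Most proteasome transcripts had somewhat lower levels in DMSO-induced cells. Of the 42 loci that passed the filter, 9 were called lower, which is 21.4% of them, against 14.7% of all loci tested. Only Psme4 was called higher, which is 2.38%, against 11.5% of all loci tested. The median change of the 42 was -0.41, against 0.03 over all loci tested. Negative changes numbered 35 of the 42, against 6294 of all 12890 loci tested. Both induced values lay below both uninduced values for 26 of the 42, or 61.9%, against 34.7% of all loci tested, and above them for 4 (Psme4, Psme2, Psmf1 and Psmd10), or 9.52%, against 36.1% of all loci. The other 12 overlapped. At an unadjusted p under 0.05, 16 of the 42 were lower and 1 was higher, against 2894 and 2662 of all 12890 loci tested.

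In summed level the 45 loci gave 5869 and 5618 FPKM in the induced samples, against 8736 and 7457 FPKM in the uninduced samples. This is 0.471% and 0.511% of the FPKM total in the induced samples, against 0.827% and 0.563% in the uninduced samples. These shares depend also on a few abundant loci. The 10 most abundant loci held 38.7% and 27.8% of the total in induced replicates 1 and 2. In uninduced replicates 1 and 2 they held 27.3% and 34.9%. A summed level in bulk RNA does not separate fewer cells of a type from less RNA per cell, and those cannot be told apart here. The transcripts were abundant and short, with a median mean level of 123 FPKM against 10.4 FPKM over all loci tested, and a median annotated transcript length of 1674.5 bases against 3057 bases.

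The calls depended on having all 4 samples. Without induced replicate 1 only Psmg1 was still called lower, at an adjusted p of 0.0482 from limma, and Psme4 was not called without any 1 sample. Without induced replicate 2, uninduced replicate 1 or uninduced replicate 2, no call held. The median change without each sample in turn ran between -0.61 and -0.28, against -0.02 to 0.06 over all loci tested. Under quantile normalization it was -0.16, against 0.09 over all loci tested. With that normalization 27 of 42 changes were negative and the same 9 members were called lower. With no filter on low values none was called. At an unadjusted p under 0.05, 16 members were then lower and 1 higher. In that fit 6813 of all 26323 loci tested were under 0.05 in either direction.

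**Figure D1:**
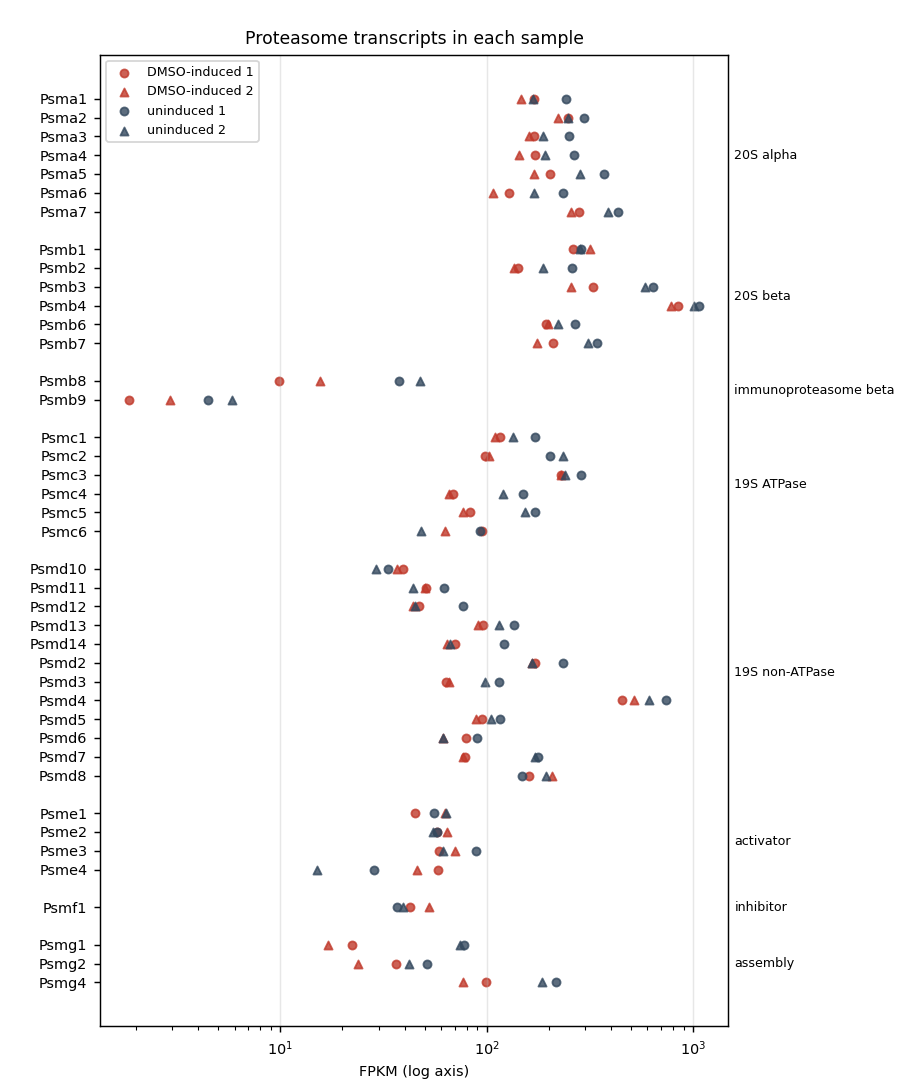
FPKM of each tested proteasome transcript except Psmd9 in each sample, on a logarithmic axis, grouped by class, with DMSO-induced samples and uninduced samples in separate colours and 1 point per sample. Psmb4 stands highest in all 4 samples, between 785 and 1074 FPKM, and Psmb9 stands lowest, at 1.84 to 5.85 FPKM.

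**Figure D2:**
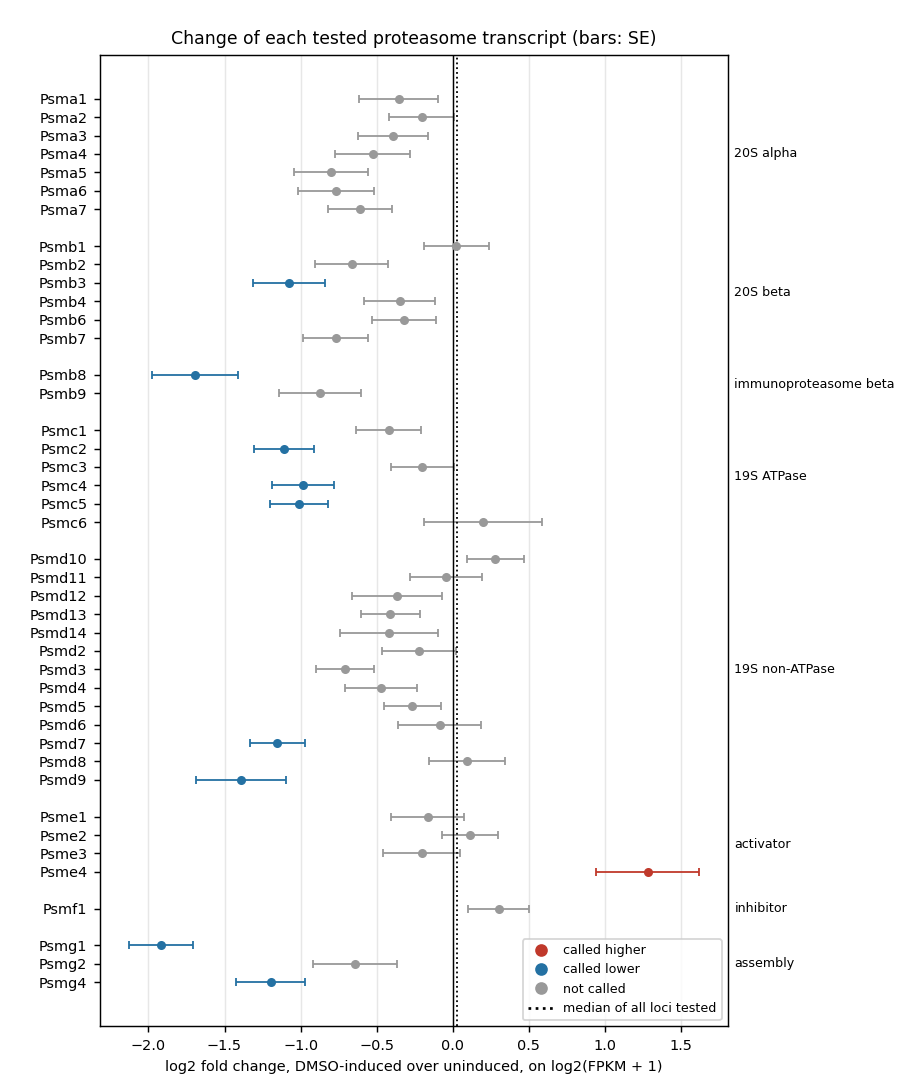
The log2 change of each tested transcript, DMSO-induced over uninduced, as points with bars of 1 SE, grouped by class. Psmg1 lies farthest to the left at -1.92, and Psme4 stands apart on the right at 1.28.

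Uninduced replicate 2 lay below uninduced replicate 1 in most of these genes. Of the 42 members, 35 were lower in uninduced replicate 2 than in uninduced replicate 1, against 7312 of all 12890 loci tested. The median difference was -0.24, against -0.07 over all loci tested. In the induced samples 29 of the 42 were lower in replicate 2, against 5964 of the 12890. The median difference there was -0.09, against 0.03 over all loci. The gap was -0.93 for Psmc6, -0.87 for Psme4 and -0.86 for Psmd14. What lies behind the gap was not tested.

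**Figure D3:**
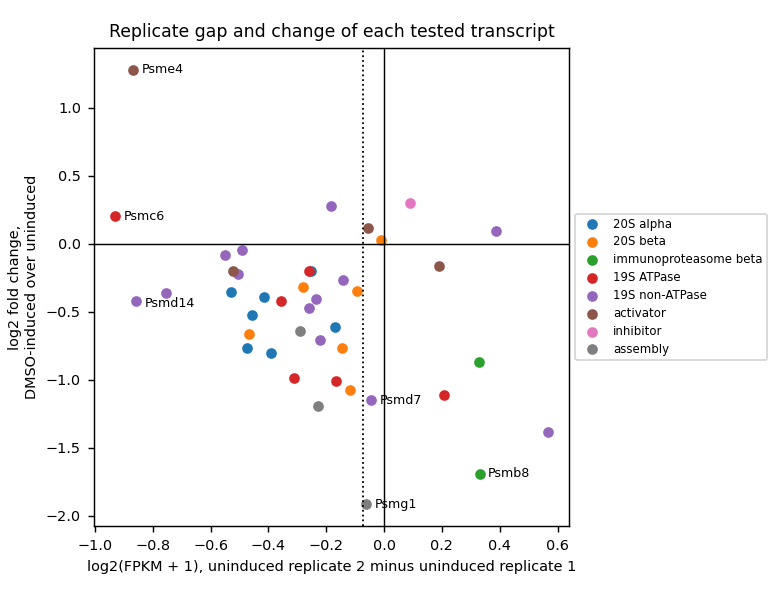
Each tested proteasome transcript by its difference between the 2 uninduced replicates (horizontal axis, log2 of FPKM + 1, replicate 2 minus replicate 1) and its log2 change, DMSO-induced over uninduced (vertical axis), coloured by class. Most points lie left of 0, as 35 of 42 members were lower in uninduced replicate 2, against 7312 of all 12890 loci tested. The assembly transcript Psmg1 lies lowest at -1.92.

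Promoter windows from the RefSeq table (GRCm38.p6) are shown for 5 genes: the largest changes in each direction, a core subunit and a 19S ATPase that were called lower, and the immunoproteasome subunit that shares its promoter with another gene. They run 5′ to 3′ on the strand of the gene, from 250 bases before the listed start to 10 bases after it. Capitals mark matches, on either strand, to TGACNNNGC (the core of the antioxidant response element, which the NRF1 and NRF2 factors bind), CCAAT (bound by NF-Y) or GAAANNGAA (the core bound by interferon regulatory factors). Psmg1 is on the minus strand at chr16:95990951-95991210, and Psmb3 is on the plus strand at chr11:97703184-97703443. The Psmc2 starts are on the plus strand at chr5:21785025-21785284 and chr5:21786497-21786756. Psmb9 is on the minus strand at chr17:34187321-34187580, and Psme4 is on the plus strand at chr11:30771525-30771784.
Psmg1: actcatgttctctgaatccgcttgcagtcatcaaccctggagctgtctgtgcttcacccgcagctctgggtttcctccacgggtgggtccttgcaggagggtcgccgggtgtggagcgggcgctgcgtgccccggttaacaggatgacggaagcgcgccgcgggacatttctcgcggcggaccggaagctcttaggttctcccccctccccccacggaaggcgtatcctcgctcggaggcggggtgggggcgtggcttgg
Psmb3: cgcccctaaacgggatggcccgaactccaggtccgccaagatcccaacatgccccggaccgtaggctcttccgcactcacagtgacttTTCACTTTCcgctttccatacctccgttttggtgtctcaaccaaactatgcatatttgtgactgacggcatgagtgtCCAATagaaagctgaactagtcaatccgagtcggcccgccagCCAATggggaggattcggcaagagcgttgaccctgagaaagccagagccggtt
Psmc2, first start: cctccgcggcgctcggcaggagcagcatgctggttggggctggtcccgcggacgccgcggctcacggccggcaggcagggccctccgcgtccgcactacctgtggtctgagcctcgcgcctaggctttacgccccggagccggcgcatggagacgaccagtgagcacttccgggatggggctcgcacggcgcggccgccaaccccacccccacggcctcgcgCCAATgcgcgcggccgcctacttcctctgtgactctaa
Psmc2, other start: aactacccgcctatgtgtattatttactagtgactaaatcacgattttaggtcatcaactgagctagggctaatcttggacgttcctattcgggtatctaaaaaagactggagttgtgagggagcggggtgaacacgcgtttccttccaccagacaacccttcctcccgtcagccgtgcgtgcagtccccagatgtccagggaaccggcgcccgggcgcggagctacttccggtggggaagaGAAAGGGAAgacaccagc
Psmb9: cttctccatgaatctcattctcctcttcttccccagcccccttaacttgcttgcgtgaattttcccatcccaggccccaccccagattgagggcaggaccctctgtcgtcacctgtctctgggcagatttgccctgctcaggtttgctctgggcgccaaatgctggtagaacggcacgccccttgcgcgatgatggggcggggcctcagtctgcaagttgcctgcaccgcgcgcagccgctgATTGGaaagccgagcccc
Psme4: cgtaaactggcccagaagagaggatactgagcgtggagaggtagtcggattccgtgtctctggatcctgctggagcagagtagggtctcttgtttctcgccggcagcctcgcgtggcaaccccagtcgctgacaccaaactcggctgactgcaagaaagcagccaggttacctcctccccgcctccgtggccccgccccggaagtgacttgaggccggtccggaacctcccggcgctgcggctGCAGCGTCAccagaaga
In these windows Psmg1 held none of the motifs, Psmb3 held GAAANNGAA and a pair of CCAAT boxes, Psmc2 held CCAAT at one start and GAAANNGAA at the other, Psmb9 held CCAAT on the opposite strand, and Psme4 held TGACNNNGC across its start.

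Over the full windows of 300 bases, which end 50 bases after the start, 35 of the 42 tested symbols had an entry. TGACNNNGC was found in 5 of the 35 genes, Psmb6, Psmc6, Psmd12, Psmd9 and Psme4, or 14.3%, against 14% of all 27025 genes with a window. CCAAT was found in 13 of the 35, or 37.1%, against 41.1% of all genes. GAAANNGAA was found in 7 of the 35, Psmb3, Psmb4, Psmc2, Psmd4, Psmd9, Psme1 and Psmg4, or 20%, against 9.76% of all genes. Of the 8 genes called lower that had a window, TGACNNNGC was in 1 (12.5%), CCAAT in 2 (25%) and GAAANNGAA in 4 (50%), on few genes. Psmd9 is the 1 with TGACNNNGC and is also among the 4 with GAAANNGAA. Its called locus passed the filter only through the uninduced samples. No match of one motif shared bases with a match of another in these genes. The windows of the members were richer in G and C than all windows, with a median of 59.2% against 52.7%, and a match describes letters only.

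The 20S alpha subunits form the outer rings, and none was called. All 7 tested had negative changes, with a median of -0.53 and a range of -0.80 to -0.20, and in 5 of the 7 both induced values lay below both uninduced values. The median was -0.30 without uninduced replicate 1 and also -0.30 under quantile normalization, where Psma2 turned positive. Summed over the class, levels were 1367 and 1206 FPKM in the induced samples, against 2093 and 1632 FPKM in the uninduced samples. At an unadjusted p under 0.05, Psma5, Psma6 and Psma7 were lower. Psma1, Psma3, Psma4 and Psma6 had changes between -0.77 and -0.36. The highest of Psma1 to Psma7 exceeded the lowest by 2.19 and 2.4 times in the induced samples, against 1.85 and 2.3 times in the uninduced samples.

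Psma5 had the largest change of the class, with 202 and 169 FPKM in induced samples, against 369 and 282 FPKM in uninduced samples. The groups did not overlap, and the change of -0.80 ± 0.24 (SE) had an adjusted p of 0.0653 from limma. Psma7 was the most abundant alpha subunit in every sample, with 280 and 257 FPKM in induced samples, against 435 and 386 FPKM in uninduced samples. Its change of -0.61 ± 0.21 (SE) had an adjusted p of 0.0878 from limma, again without overlap. Psma2 differed least, with 248 and 222 FPKM in induced samples, against 295 and 248 FPKM in uninduced samples. Induced replicate 1 was level with uninduced replicate 2, and under quantile normalization its sign turned to 0.02. Psma8, the subunit known from testis, was listed at 0 in all 4 samples.

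The 20S beta subunits form the inner rings, and Psmb3 was called lower. Of 6 tested, 5 had negative changes and 5 had induced values below both uninduced values, with a class median of -0.51. Psmb3, a non-catalytic subunit on chromosome 11 (GRCm38, 97703399 to 97713500, plus strand), had 328 and 256 FPKM in induced samples, against 637 and 587 FPKM in uninduced samples. The induced levels were about 0.477 of the uninduced mean, and the change of -1.08 ± 0.24 (SE) had an adjusted p of 0.0326 from limma. The call was lost when levels were scaled to sums without the most abundant loci.

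Psmb7, which carries the trypsin-like active site, had 209 and 175 FPKM in induced samples, against 343 and 310 FPKM in uninduced samples. Its groups did not overlap and its change of -0.77 ± 0.21 (SE) just missed the threshold, with an adjusted p of 0.0544 from limma, and it was called under median-of-ratios scaling at 0.0472. Psmb6, which carries the caspase-like site, had 193 and 197 FPKM in induced samples, against 269 and 221 FPKM in uninduced samples, a change of -0.32. Psmb4 was the most abundant proteasome transcript, with 847 and 785 FPKM in induced samples, against 1074 and 1007 FPKM in uninduced samples. Its change was -0.35 and its adjusted p from limma was 0.306, although its groups did not overlap. Psmb1 was nearly level between the groups, with 263 and 317 FPKM in induced samples, against 285 and 283 FPKM in uninduced samples. The induced values lay on both sides of the uninduced ones, and its change of 0.02 turned to -0.02 under median-of-ratios scaling. Psmb2 had 141 and 135 FPKM in induced samples, against 258 and 187 FPKM in uninduced samples, and was not called. Psmb11, the subunit of thymic epithelium, stayed at 0.03 FPKM or less.

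Psmb5, which carries the chymotrypsin-like site that bortezomib blocks, shares its locus in the table with the microRNA gene Mir686. That locus had 121 and 108 FPKM in induced samples, against 247 and 295 FPKM in uninduced samples. The groups did not overlap, and the change of -1.23 ± 0.21 (SE) had an adjusted p of 0.02 from limma.

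The immunoproteasome subunits replace the catalytic beta subunits in cells exposed to interferon and in many blood cells. Here Psmb8 was low beside the Psmb5 locus and Psmb9 was low beside Psmb6, and Psmb8 was called lower in induced samples. Over the 4 samples Psmb8 had a mean of 27.7 FPKM and Psmb9 of 3.77 FPKM, against a median of 10.4 FPKM over all loci tested. Psmb8, on chromosome 17 (GRCm38, 34197721 to 34201454, plus strand), had 9.87 and 15.6 FPKM in induced samples, against 37.7 and 47.7 FPKM in uninduced samples. The groups were well apart, with a change of -1.69 ± 0.28 (SE) and an adjusted p of 0.0196 from limma. Psmb9, its neighbour on the minus strand (34181987 to 34187764), had 1.84 and 2.93 FPKM in induced samples, against 4.46 and 5.85 FPKM in uninduced samples. Its groups did not overlap either, but its change of -0.87 ± 0.27 (SE) had an adjusted p of 0.0685 from limma. Unlike most members, both genes were higher in replicate 2 of each group. Psmb10 sits in a locus joined to Ctrl, Lcat and Slc12a4, which had 15.6 and 13.4 FPKM in induced samples, against 55.1 and 45.7 FPKM in uninduced samples. That locus was called lower, at -1.73 ± 0.21 (SE) and an adjusted p of 0.0129 from limma, and its reads cannot be assigned to Psmb10 alone. The calls of the Psmb5 and Psmb10 loci, and of the Psmg3 locus, were lost without any 1 sample and with no filter.

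The macrophage marker Cd68 was called lower in the induced samples, as Psmb8 was. The summed level of 4 macrophage markers was 2.17 and 1.16 FPKM in induced samples, against 7.65 and 5.3 FPKM in uninduced samples. Its largest share was Cd68, at 1.72 and 0.67 FPKM in induced samples, against 7.09 and 4.68 FPKM in uninduced samples, while Lyz2, Csf1r and Adgre1 did not reach 1 FPKM in any sample. Csf1r was at 0.38 and 0.38 FPKM in induced samples, against 0.2 and 0.06 FPKM in uninduced samples, and Adgre1 was at 0.02 and 0.02 FPKM in induced samples and listed at 0 in both uninduced samples. Their part in the result was not tested.

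Relative to the constitutive subunits, the immunoproteasome transcripts were also lower, but not by the same margin in both replicates. The ratio of Psmb8 to the Psmb5 locus was 0.0816 and 0.144 in induced samples, against 0.153 and 0.162 in uninduced samples. The ratio of Psmb9 to Psmb6 was 0.0095 and 0.0149 in induced samples, against 0.0166 and 0.0265 in uninduced samples. The groups did not overlap in either ratio, and induced replicate 2 came close to the uninduced samples in both. The ratios were not tested: with 2 samples against 2, the smallest p that a two-sided exact permutation test allows is 0.333.

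Psmb9 and the peptide transporter gene Tap1 are divergent neighbours whose promoter windows share 275 of 300 bases on opposite strands, and their annotated genes overlap. Tap1 had 8.23 and 10.5 FPKM in induced samples, against 7.17 and 9.33 FPKM in uninduced samples, so its groups overlapped, with a change of 0.17 and an adjusted p of 0.631 from limma. The ratio of Psmb9 to Tap1, chosen after the values were seen, was 0.224 and 0.279 in induced samples, against 0.622 and 0.627 in uninduced samples. Strandedness is not given in the sources used here, so reads from the overlap of the 2 genes cannot be told apart. With Psmb9, 16 of the 42 tested symbols overlap an annotated gene on the opposite strand, and the same limit holds for the other ones: Psma2 to Psma6, Psmb7, Psmb8, Psmc3, Psmd3, Psmd5, Psmd9, Psmd13, Psmd14, Psme1 and Psme4.

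**Figure D4:**
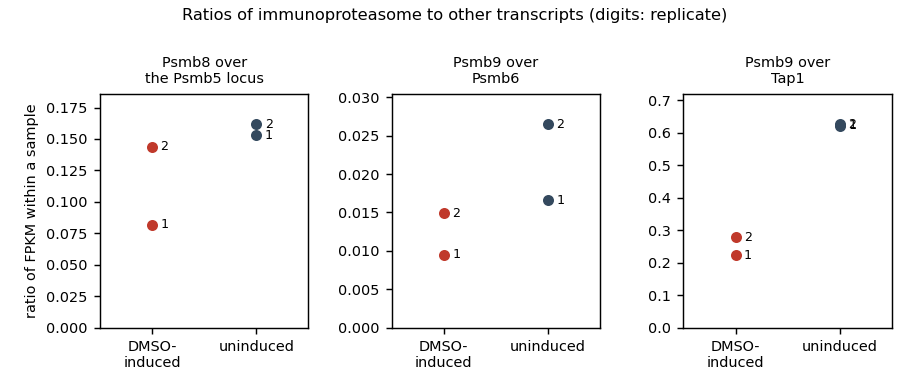
Ratios of FPKM within each sample for Psmb8 over the Psmb5 locus, Psmb9 over Psmb6 and Psmb9 over Tap1, with DMSO-induced samples left of uninduced samples and 1 point per sample. All induced points lie below the uninduced points. The highest induced ratio is 0.144 against a lowest uninduced ratio of 0.153 in the first panel, 0.0149 against 0.0166 in the middle panel and 0.279 against 0.622 in the last.

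The 19S ATPases form the ring that unfolds substrates, and they were uneven. Psmc2, Psmc4 and Psmc5 were called lower, Psmc1 (-0.42), Psmc3 and Psmc6 were not, and the class median was -0.70. Psmc2 (chromosome 5, 21785283 to 21803787, plus strand) had 97.8 and 103 FPKM in induced samples, against 202 and 234 FPKM in uninduced samples. Its change was -1.11 ± 0.20 (SE) with an adjusted p of 0.0213 from limma. Psmc4 (chromosome 7, 28041707 to 28050101, minus strand) had 68.3 and 65.9 FPKM in induced samples, against 149 and 120 FPKM in uninduced samples. Psmc5 (chromosome 11, 106256154 to 106263120, plus strand) had 83.3 and 76.4 FPKM in induced samples, against 171 and 152 FPKM in uninduced samples. None of these groups overlapped, and the changes of Psmc4 and Psmc5 were -0.99 and -1.01, with adjusted p of 0.0287 and 0.0241 from limma. The call of Psmc4 was lost when levels were scaled to sums without the most abundant loci.

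Psmc3 was the most abundant ATPase and differed little, with 229 and 228 FPKM in induced samples, against 287 and 239 FPKM in uninduced samples. Its change of -0.20 turned to 0.02 under quantile normalization. Psmc6 was uneven within both groups, with 94.4 and 62.5 FPKM in induced samples, against 92.5 and 48.1 FPKM in uninduced samples. Its replicate 1 was the higher one each time, and no group difference stood out from that spread, at 0.20 with an adjusted p of 0.718 from limma. The spread of the ring from its lowest to its highest member was 3.34 and 3.65 times in induced samples, against 3.1 and 4.98 times in uninduced samples.

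The non-ATPase subunits of the 19S particle include its lid and its ubiquitin receptors, and the symbols of this class also cover the 19S assembly chaperones Psmd5, Psmd9 and Psmd10. Of 13 loci tested, 2 were called lower (Psmd7 and Psmd9) and none higher. Without the chaperones, 1 of 10 was called lower, Psmd7, and the median was -0.39. Both induced values lay below both uninduced values in 6, above in 1, and overlapped in 6, with a median of -0.37 that shrank to -0.10 without uninduced replicate 1. Psmd7, a partner of the lid deubiquitinase (chromosome 8, 107580381 to 107588464, minus strand), had 78.5 and 76.9 FPKM in induced samples, against 177 and 171 FPKM in uninduced samples. Replicates were nearly equal, and the change of -1.15 ± 0.18 (SE) had an adjusted p of 0.0183 from limma. Psmd14, the deubiquitinase itself, had 70.4 and 63.9 FPKM in induced samples, against 121 and 66.6 FPKM in uninduced samples. Uninduced replicate 2 was near the induced samples, and the adjusted p from limma was 0.368. Without uninduced replicate 1 its change was 0.009.

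Psmd4, a ubiquitin receptor and the most abundant of the class, had 451 and 520 FPKM in induced samples, against 736 and 615 FPKM in uninduced samples. The change was -0.47 and the adjusted p from limma was 0.19, with no overlap. Psmd3, a lid scaffold subunit, had 63.3 and 65.7 FPKM in induced samples, against 114 and 97.98 FPKM in uninduced samples, and its adjusted p of 0.0513 from limma lay just outside the threshold. Psmd3 was called lower under median-of-ratios scaling (adjusted p of 0.0362) and at a filter of 5 FPKM (adjusted p of 0.0491). Psmd11 had the smallest change of the class, -0.04, with 50.7 and 50.1 FPKM in induced samples, against 61.8 and 43.7 FPKM in uninduced samples. Its uninduced values lay on both sides of the induced ones, and its sign turned to 0.16 under quantile normalization and to 0.05 when scaled to sums without the most abundant loci. Psmd2, Psmd6, Psmd8, Psmd12 and Psmd13 had changes between -0.41 and 0.10, and none was called. The locus that joins Psmd1 to Armc9 and Gm21972 overlapped between groups, with 85.9 and 82.2 FPKM in induced samples, against 105 and 50.6 FPKM in uninduced samples. Leaving out uninduced replicate 1 gave a change of 0.72, and leaving out uninduced replicate 2 gave -0.31.

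Psmd5, Psmd9 and Psmd10 are chaperones of 19S assembly rather than subunits of the finished particle. Psmd10, known in cancer as gankyrin, had 39.2 and 36.7 FPKM in induced samples, against 33.2 and 29.1 FPKM in uninduced samples. It was the only Psmd locus with both induced values above both uninduced values, and it was not called, at 0.28 with an adjusted p of 0.305 from limma. Psmd5 had 94.4 and 88.7 FPKM in induced samples, against 116 and 105 FPKM in uninduced samples, and was not called. The tested Psmd9 locus was called lower at -1.39 ± 0.30 (SE), adjusted p of 0.0304 from limma, but it was listed at 0 and 0.37 FPKM in induced samples, against 1.52 and 2.73 FPKM in uninduced samples, and it passed the filter only through the uninduced samples. A further locus, which joins Psmd9 to Wdr66, had 20.1 and 18.8 FPKM in induced samples, against 24.4 and 32.7 FPKM in uninduced samples. That joined locus was not called, at an adjusted p of 0.14 from limma, and its reads cannot be assigned to Psmd9 alone. The call of the tested Psmd9 locus was lost with pseudocount 0.1. The other Psmd9 locus stayed under 1 FPKM and was not tested. Leaving Psmd9 out, 8 of 41 members were called lower and the median was -0.41.

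The activators had mixed changes, with 1 of 4 called higher, none called lower, a median change of -0.02 and summed levels of 219 and 244 FPKM in induced samples, against 230 and 195 FPKM in uninduced samples. Psme4, the PA200 activator of the nucleus (chromosome 11, 30771726 to 30880361, plus strand), had 58.3 and 46.1 FPKM in induced samples, against 28.4 and 15.1 FPKM in uninduced samples. It was about 2.4 times higher in induced samples, with a change of 1.28 ± 0.34 (SE) and an adjusted p of 0.0495 from limma, close to the threshold. The call was lost without any 1 of the 4 samples, with pseudocount 0.1 and when scaled to sums without the most abundant loci, and its uninduced replicates differed by 0.87 on the log2 scale. Its change was 1.71 when uninduced replicate 1 was left out and 0.85 when uninduced replicate 2 was left out. Psme1 and Psme2, the interferon-responsive PA28 subunits, were not called. Psme1 had 44.7 and 63.1 FPKM in induced samples, against 55.7 and 63.7 FPKM in uninduced samples. Psme2 had 57.5 and 64.5 FPKM in induced samples, against 57.3 and 55.0 FPKM in uninduced samples. Psme3, the nuclear PA28 subunit, had 58.5 and 70.3 FPKM in induced samples, against 88.8 and 61.6 FPKM in uninduced samples, and overlapped. The locus that joins Psme2b to another gene was listed at 0 in all 4 samples. Psmf1, the PI31 inhibitor or regulator of the core, had 42.4 and 52.5 FPKM in induced samples, against 36.9 and 39.3 FPKM in uninduced samples, a change of 0.30 ± 0.20 (SE) with an adjusted p of 0.303 from limma.

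The assembly chaperones had a class median of -1.20, and all 3 had induced values below both uninduced values. Psmg1 and Psmg2 form a heterodimer that builds the alpha ring, and Psmg3 and Psmg4 form another. Psmg1 (chromosome 16, 95979933 to 95990960, minus strand) had 22.2 and 17.0 FPKM in induced samples, against 77.8 and 74.5 FPKM in uninduced samples. The induced mean was 0.257 of the uninduced mean, and the change of -1.92 ± 0.21 (SE) had an adjusted p of 0.0128 from limma, the largest change of any member. Psmg4 (chromosome 13, 34162964 to 34178173, plus strand) had 98.8 and 76.7 FPKM in induced samples, against 218 and 185 FPKM in uninduced samples. Its change was -1.20 ± 0.23 (SE) with an adjusted p of 0.0239 from limma.

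Psmg2, the partner of Psmg1, had 36.5 and 23.7 FPKM in induced samples, against 51.6 and 42.0 FPKM in uninduced samples. The groups did not overlap, but the change of -0.64 had an adjusted p of 0.138 from limma. It was -0.94 without induced replicate 1 and -0.34 when induced replicate 2 was left out. The difference between the partners was not tested. The locus that joins Psmg3 to Gm26938 and Tmem184a had 29.8 and 28.1 FPKM in induced samples, against 63.5 and 66.3 FPKM in uninduced samples, and was called lower at -1.14 with an adjusted p of 0.0183 from limma. Pomp, which matures the beta ring, was not called, with 254 and 218 FPKM in induced samples, against 338 and 258 FPKM in uninduced samples, at an adjusted p of 0.341 from limma.

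Partners of the proteasome outside the Psm symbols were called about as often as loci in general. Of 17 proteasome-associated loci tested, 2 were called higher, 2 were called lower and 13 were not called, with a median of 0.12. That is 11.8% in each direction, against 11.5% higher and 14.7% lower over all loci tested. Fbxo7, an F-box protein with known roles in red cell maturation and in binding PI31, had 28.9 and 33.6 FPKM in induced samples, against 14.3 and 14.3 FPKM in uninduced samples, at 1.07 and an adjusted p of 0.022 from limma. Zfand5, which activates the proteasome in muscle, had 41.5 and 51.7 FPKM in induced samples, against 21.3 and 22.1 FPKM in uninduced samples, at an adjusted p of 0.0242 from limma. Both lay well above the uninduced range. The shuttle factors Rad23b and Ubqln4, which carry ubiquitinated cargo, were lower: Rad23b had 44.9 and 52.3 FPKM in induced samples, against 88.6 and 78.7 FPKM in uninduced samples, with an adjusted p of 0.0447, and Ubqln4 had 17.1 and 15.2 FPKM in induced samples, against 37.0 and 29.7 FPKM in uninduced samples, with an adjusted p of 0.0295, both from limma. The call of Rad23b was lost under quantile normalization, and those of Rad23b and Ubqln4 were lost when levels were scaled to sums without the most abundant loci. Adrm1, a ubiquitin receptor of the 19S particle, was not called, with 51.6 and 51.2 FPKM in induced samples, against 108 and 64.4 FPKM in uninduced samples.

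The factors that drive proteasome genes were described from a list of the NRF1 axis. Of 10 loci tested, 1 was called higher and none lower, with a median of 0.02, and this 10% higher is close to the 11.5% of all loci tested. Ngly1, the de-glycosylating enzyme that activates NRF1, had 11.2 and 9.44 FPKM in induced samples, against 5.78 and 5.17 FPKM in uninduced samples, with an adjusted p of 0.0486 from limma. That call was lost under median-of-ratios scaling, under scaling to sums without the most abundant loci and with pseudocount 0.1. Nfe2l1, which encodes NRF1, had 13.9 and 18.6 FPKM in induced samples, against 19.97 and 57.2 FPKM in uninduced samples. Its uninduced replicates differed more than its groups, and its change of -1.03 was not called, at an adjusted p of 0.185 from limma. The change was -1.77 without uninduced replicate 1 and -0.30 when uninduced replicate 2 was left out.

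Ubiquitin genes and conjugating enzymes included 2 that were called higher and none lower among 8 tested, with a median of 0.47. This is 25% higher, against 11.5% of all loci tested, on few genes. Ube2l6, an ISG15 and ubiquitin conjugating enzyme known in erythroid cells, had 79.9 and 96.1 FPKM in induced samples, against 23.8 and 23.3 FPKM in uninduced samples, at 1.85 and an adjusted p of 0.0121 from limma. Ube2h, a ubiquitin conjugating enzyme of late erythroid cells, had 7.02 and 10.3 FPKM in induced samples, against 3.21 and 3.18 FPKM in uninduced samples, at an adjusted p of 0.0304 from limma. Both stood clear of the uninduced range. Of 5 tested genes of class I presentation and interferon response, Irf1 and Stat2 were called higher and none lower, with a median of 0.17. This is 40% higher, against 11.5% of all loci tested, again on few genes. Irf1 had 5.28 and 6.62 FPKM in induced samples, against 2.67 and 2.5 FPKM in uninduced samples, and Stat2 had 3.26 and 4.2 FPKM in induced samples, against 1.03 and 1.38 FPKM in uninduced samples. Their adjusted p-values from limma were 0.0361 and 0.0287, in the opposite direction to Psmb8. Of the 9 calls among these listed genes, only that of Ube2l6 held without induced replicate 1, and none held without any other 1 sample or with no filter on low values.

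**Figure D5:**
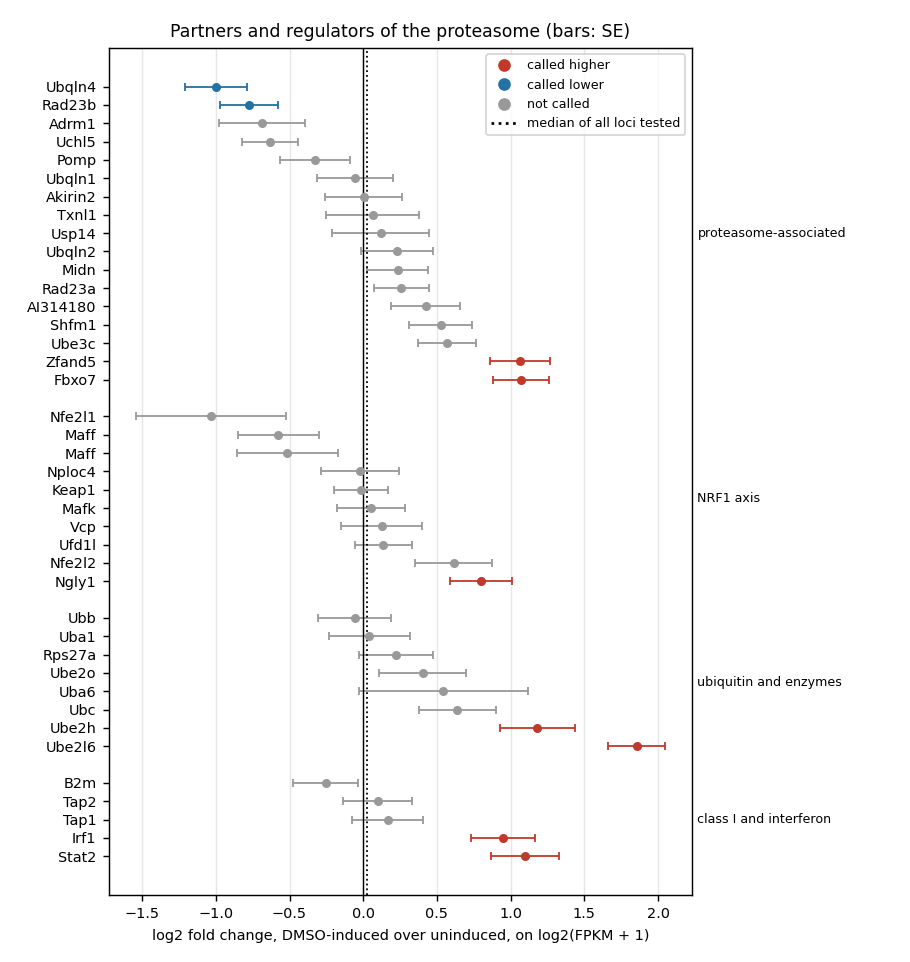
The log2 change, DMSO-induced over uninduced, of the tested genes on the lists of proteasome partners, NRF1 axis, ubiquitin genes and immunoproteasome context, as points with bars of 1 SE. Ube2l6 lies farthest right at 1.85, and the shuttle factors Rad23b and Ubqln4 lie left of 0.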

How the data were processed

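Trizol extraction, Ribo-Zero depletion of ribosomal RNA and Illumina library preparation are given per the labels' protocols. Reads were processed with TopHat2 and the GRCm38 build, per the submitters' processing notes. The quantifier, strandedness, read depth and replicate origin are not given in the sources used here. Each sample had 1 FPKM column in the table the authors deposited. The unit was inferred from its layout and values, and no count was available, so no interval of counting error is given and precision rests on 2 samples per group.

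Loci at 1 FPKM or more in at least 2 samples (12890) were tested on log2(FPKM + 1) with limma 3.58.1 in R 4.3.3. The fit had a trend in the variance and Benjamini-Hochberg adjustment over all of these loci. It was checked on simulated data with independent noise drawn from its own fitted variances. Such data hold no shift shared by the loci of a sample, so the check cannot speak to such shifts in these samples. The pseudocount of 1 understates changes of low loci. Samples were grouped by their titles, and no block was used. Alternatives were 3 other scalings, no filter, a filter at 5 FPKM, pseudocount 0.1, a replicate block, and leaving out each sample. GENCODE M21 gave positions by gene symbol and lengths by reference transcript, and 43405 loci were matched by transcript. Promoter windows came from RefSeq.

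Members and lists were chosen with earlier results of these data known. Named genes were all called members, the immunoproteasome subunits and the subunits they replace, the most abundant, most changed and least changed of each class, members that failed the filter, called list genes, and Nfe2l1, Pomp and Adrm1. Psma6, Psmb2, Psmd3, Psmd5, Psmd10, Psmd14, Psmc1, Psme1, Tap1 and the other members given by value were named after their values were seen. The ratio of Psmb10 to Psmb7 was not computed, because Psmb10 has no locus of its own. Groups of 2 samples are too small for a test of outlying samples.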

Additional observations from a re-analysis of the deposited data

How the results depend on the processing

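Over all loci, 1478 were called higher and 1899 lower. Without each sample in turn, loci called higher ran from 0 to 180 and loci called lower from 14 to 306, and with no filter they were 7 and 23. Members called lower were 9, and ran from 0 to 1 without each sample in turn. They numbered 0 with no filter, 7 when scaled to sums that leave out globins and the 10 loci of highest level, 8 with pseudocount 0.1, 9 at 5 FPKM, where Psmd3 was added and Psmd9 was not tested, the same 9 under quantile normalization, and 11 under median-of-ratios scaling, where Psmb7 and Psmd3 were added. The 1 member called higher became 0 with no filter, with pseudocount 0.1, when scaled to sums and without any 1 sample. Psmd9 was not called with pseudocount 0.1, and Psmb3 and Psmc4 were not called when scaled to sums.

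Under quantile normalization the median changes were -0.16 for all members, -0.30 for 20S alpha, -0.34 for 20S beta, -0.42 for 19S ATPases, -0.115 for 19S non-ATPases and 0.20 for activators. The median over all loci tested was 0.09 under that normalization. Scaled to sums the median changes were -0.41 for 20S beta and 0.072 for activators, against 0.107 over all loci tested. Without each sample in turn they ran from -0.61 to -0.28 for all members, -0.70 to -0.30 for 20S alpha, -0.65 to -0.37 for 20S beta, -0.80 to -0.54 for 19S ATPases, -0.53 to -0.10 for 19S non-ATPases and -0.15 to 0.14 for activators. Signs turned for Psma2 (0.025), Psmc3 (0.025), Psmd2 (0.025), Psmd5 (0.018), Psmd6 (0.16), Psmd11 (0.16), Psme1 (0.05) and Psme3 (0.038) under quantile normalization, for Psmb1 (-0.021) under median-of-ratios scaling and for Psmd6 (0.01) and Psmd11 (0.051) when scaled to sums. Without each sample in turn signs turned, as these ranges show, for Psmc6 (-0.27 to 0.67), Psme1 (-0.41 to 0.081), Psmb1 (-0.11 to 0.16), Psmd6 (-0.36 to 0.19), Psmd8 (-0.098 to 0.29), Psmd11 (-0.29 to 0.20), Psmd12 (-0.75 to 0.011), Psmd14 (-0.85 to 0.009), Psmd2 (-0.47 to 0.030), Psme3 (-0.46 to 0.057), Tap1 (-0.004 to 0.34) and the Psmd1 locus (-0.31 to 0.72). Among uncalled values, some kept their sign but moved widely without 1 sample, such as Nfe2l1 (-1.77 to -0.30), Adrm1 (-1.06 to -0.32), Pomp (-0.52 to -0.13), Psma1 (-0.62 to -0.090), Psma3 (-0.60 to -0.18), Psma4 (-0.75 to -0.30), Psmb2 (-0.90 to -0.43), Psmb6 (-0.46 to -0.18), Psmc1 (-0.60 to -0.24), Psmf1 (0.15 to 0.45), Psmg2 (-0.94 to -0.34) and the Wdr66 locus of Psmd9 (-0.72 to -0.31). The cause was not tested.

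Replicate numbers are shared by the groups, but the labels do not say that they pair samples, and deviations of same-numbered samples correlated at 0.17 (Pearson) and 0.314 (Spearman) across 12890 loci, which are not independent replicates. With a replicate block, 13 members were called lower and 1 higher, with the medians unchanged by construction, and Psma5, Psma6, Psmb7 and Psmb9 were added. Depth is unknown, so it sets no limit that can be given here.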
